A study of Mus musculus with 8 samples.

Results

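The genes described here are 58 genes of the G2 phase and of mitosis, taken by name from a fixed list out of 23420 gene symbols in the count files. They cover the cyclins and kinases that start mitosis, the kinetochore and its checkpoint, the kinesins and other spindle proteins, condensin and the proteins that trigger anaphase. The list is of names and sets no threshold on a value, but it was drawn up with earlier results of these data known. All 58 symbols are in the files, and 56 had enough counts to be tested.

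RNA sequencing was made from thymocytes, the cells of the thymus that become T cells, of wild-type mice of 2 strains that the library names call B6 and BALB, with no substrain. From each strain there are 2 libraries of DP thymocytes and 2 of whole thymocytes, 8 libraries in 4 groups. DP thymocytes, the CD4+ CD8+ stage, were sorted as cells without the activation marker CD69 and with low or medium staining by the antibody H57, which binds the beta chain of the T cell receptor. Whole thymocytes were not limited to a stage. The labels give no age or sex, name no treatment or transgene, and do not say whether replicates came from separate animals, so the p-values may measure technical spread.

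A cell that enters mitosis makes its mitotic proteins late, in G2, and destroys many of them when it leaves. Cyclin B with Cdk1 starts the process, condensin packs the chromosomes, kinetochores hold them to spindle microtubules, and a checkpoint holds back anaphase until every chromosome is attached. In the thymus, precursors divide in bursts before and around the time they first carry CD4 and CD8, and most later DP thymocytes rest while they rearrange the T cell receptor alpha chain. Transcripts of these genes are therefore commonly read as a sign of dividing cells. In these bulk samples more dividing cells and more of such RNA per cell cannot be told apart.

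The libraries held 2632083 to 5974684 counts in genes, the lowest and the highest being the replicates 2 and 1 of BALB DP. BALB DP replicate 1 stood apart in having 30.8% of its reads in genes, against 22.6% to 26.3% in the other 7, and 3.14% of its gene counts in the ribosomal RNA precursor Rn45s, against 5.11% to 8.35%. The BALB whole replicates differed in sex-linked genes. Replicate 1 had 12313 counts of Xist and 0 of the Y-linked Ddx3y, and replicate 2 had 203 and 725. These 2 libraries were therefore not both made from the same animal, which is not known for the replicates of the other groups. The 6 other libraries had 6 to 24 counts of Xist and 444 to 1177 of Ddx3y. Markers bore out the population labels, since 12 of 15 DP markers were lower in whole than in DP thymocytes of B6 and 13 of 15 in BALB. Mature thymocyte markers summed to 0.014% to 0.0178% of gene counts in the DP libraries and to 0.063% to 0.0909% in the whole thymocyte libraries.

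The 58 genes together held more of the RNA in BALB DP thymocytes than in any other group. Their summed counts were 1.28% and 1.22% of all gene counts in the B6 DP libraries and 1.22% and 1.29% in B6 whole thymocytes. In BALB they were 2.04% and 1.7% in DP and 1.35% and 1.32% in whole thymocytes. Both BALB DP libraries were thus above the 6 others, which lay close together. Group means were 1.25% ± 0.0429, 1.26% ± 0.0548, 1.87% ± 0.236 and 1.33% ± 0.0195 (SD, n = 2 each), in the same order. The smallest p that an exact test of 2 libraries against 2 allows is 0.333, so no test was made on these sums.

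**Figure D1:**
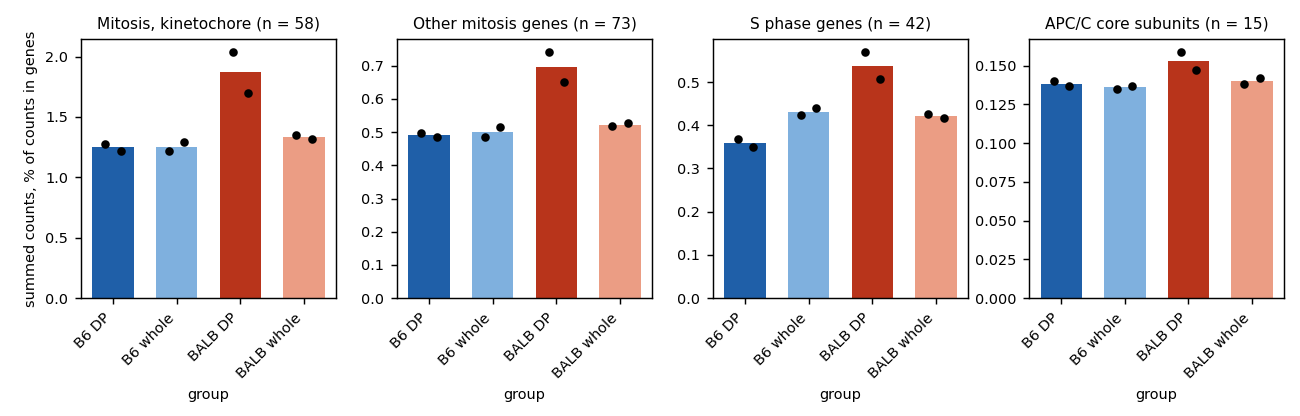
Summed counts of 4 gene lists as a percent of all counts in genes, per group. Bars are means and points are the 2 libraries of a group. For the mitosis and kinetochore genes the BALB DP libraries are at 2.04% and 1.7% and the 6 others at 1.22% to 1.35%; the core subunits of the anaphase-promoting complex, all within 0.135% to 0.159%, vary less.

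Seen gene by gene, 51 of the 56 tested genes were higher in both BALB DP than in both B6 DP libraries, a pattern shown by 26.1% of all tested genes, and 48 were higher in both BALB DP libraries than in all 6 others (10.5% of all tested genes). The 8 without it were Cdc25b, Cenpa, Cenpi, Cenpk, Ndc80, Kif2c, Ncapd2 and Pttg1. Set against the B6 DP mean on the log2 scale, the median gene was 0.75 higher in BALB DP replicate 1 and 0.52 higher in replicate 2. In the B6 whole libraries that median was -0.08 and 0.05, and in the BALB whole libraries 0.05 and 0.11. Levels per kb of exon ranged widely. Over all 8 libraries Mki67 had the highest mean level, 358.7 CPM (counts scaled to library size, here per kb), then Smc4 with 254.8, while Kif11 was listed at 0.0596 and Plk4 at 0. The annotation used for counting is not known here, so whether these 2 values reflect the RNA or the counting was not tested.

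**Figure D2:**
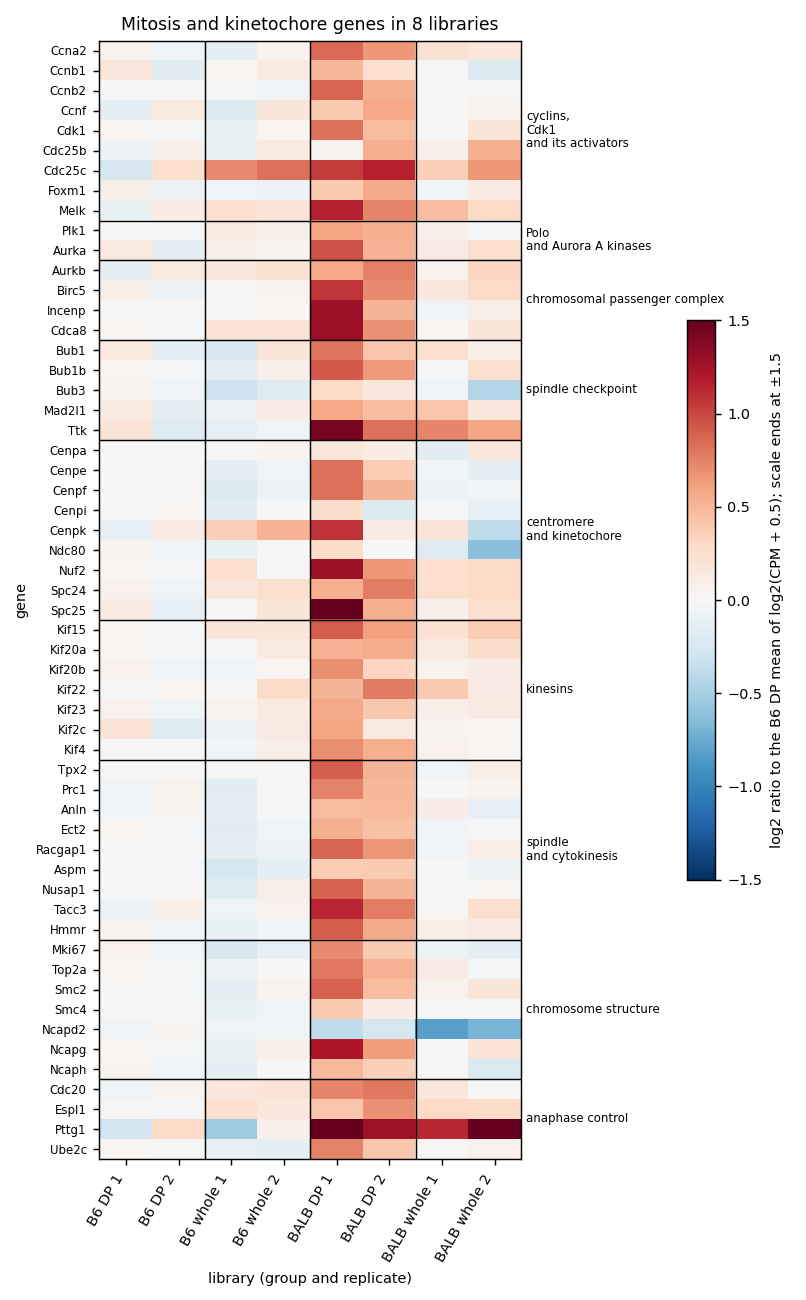
Level of each of the 56 tested genes in the 8 libraries, as the log2 ratio to the mean of the B6 DP libraries, with 0.5 added to CPM; red is higher and blue lower, and lines part the roles and the groups. The columns of BALB DP are red for nearly all genes, with medians of 0.75 and 0.52, while Ncapd2 is blue in all 4 BALB libraries and Pttg1 red in all 4.

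Many mitotic genes share 2 promoter elements, the CHR (TTTGAA or TTCGAA), bound by the MuvB core of the DREAM and B-Myb complexes, and the CCAAT box, bound by NF-Y. RefSeq promoters on GRCm38.p6 were found for 49 of the 58 genes, 54 promoters in all. In the stretch from 250 bases before to 50 after the start, 39 of these 54 (72.2%) hold a CHR on either strand, against 19.2% of all 32851 promoters of that length. CCAAT was found in 40 (74.1%), against 37.4%, and both motifs in 34 (63%), against 7.52%. These matches of letters describe the sequences and are not shown to be sites. The 4 promoters below hold both motifs within the last 150 bases before the start and belong to genes whose values are given further on. Capitals mark a CHR or a CCAAT box on either strand, so that CCAAT on the other strand reads ATTGG and TTTGAA reads TTCAAA.
Mki67 (chr7:135716380-135716529, minus strand): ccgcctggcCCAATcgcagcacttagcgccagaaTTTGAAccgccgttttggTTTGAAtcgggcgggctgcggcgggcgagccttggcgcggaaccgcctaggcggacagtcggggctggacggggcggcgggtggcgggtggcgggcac
Top2a (chr11:99024190-99024339, minus strand): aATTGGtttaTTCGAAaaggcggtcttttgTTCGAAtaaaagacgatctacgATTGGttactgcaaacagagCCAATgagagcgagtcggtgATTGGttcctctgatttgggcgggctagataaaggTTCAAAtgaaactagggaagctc
Cdk1 (chr10:69352913-69353062, minus strand): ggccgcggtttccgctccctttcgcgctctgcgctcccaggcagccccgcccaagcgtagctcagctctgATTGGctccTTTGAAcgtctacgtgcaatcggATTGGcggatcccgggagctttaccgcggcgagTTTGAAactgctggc
Cdc20 (chr4:118437344-118437493, minus strand): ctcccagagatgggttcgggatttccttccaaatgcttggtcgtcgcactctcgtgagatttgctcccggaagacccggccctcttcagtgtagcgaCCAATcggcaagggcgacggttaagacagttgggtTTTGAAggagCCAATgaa

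Cdk1 has a CHR 15 bases before the RefSeq start, and Top2a has 3 CHR and 4 CCAAT matches in this stretch. The GENCODE positions given further on for Cdk1 and Cdc20 reach past the RefSeq start into the printed stretch. In Mki67 the nearest CHR lies 98 bases before the start. By the test described next, 6.85% of all tested genes were called higher in BALB than in B6 DP thymocytes. Of the 36 members with a CHR in the longer stretch 35 were tested and 28 were called higher. Of the 13 without a CHR 12 were tested and 8 were called higher. Of the 9 with no promoter in the table (Ccna2, Cdc25c, Foxm1, Aurkb, Incenp, Spc24, Kif20a, Tpx2 and Smc4) 8 were called higher. A link between the CHR and the call was not tested. Ncapd2, the one gene called lower, also holds a CHR and CCAAT.

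The comparison of BALB with B6 within DP thymocytes asks how the strain changes expression at one sorted stage. In it 44 of the 56 tested genes rose in BALB, Ncapd2 fell and 11 did not pass, at an adjusted p under 0.05 by the quasi-likelihood test of edgeR, Benjamini-Hochberg adjusted over all 11409 tested genes. Over all those genes 13% were called, 6.85% higher and 6.14% lower. The median log2 fold change of the 56 was 0.65, against 0.00 over all genes tested, and 55 of the 56 were above 0. Every role took part, with 6 of 9 cyclin and Cdk1 genes, both tested Polo and Aurora A kinases, all 4 of the chromosomal passenger complex, 3 of 5 checkpoint genes, 5 of 9 of centromere and kinetochore, 6 of 7 kinesins, all 9 spindle and cytokinesis genes, 5 of 7 of chromosome structure and all 4 of anaphase control. The count of members called, 45 in all, was 23 when only the 4 DP libraries were fitted. In that fit 562 of all genes were called, against 1482 in the main fit. The median of the members was 0.67 without B6 DP replicate 1 and 0.64 without B6 DP replicate 2, each of which leaves B6 DP with 1 library. Without BALB DP replicate 1, which stands apart, the median was 0.52.

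Among the cyclins, Ccna2 (cyclin A2, which acts with its kinase from S phase to early mitosis) had 166.4 and 153.6 CPM in the B6 DP libraries, 145.2 and 166.4 in B6 whole, 288.5 and 250.8 in BALB DP, and 186.9 and 180.5 in BALB whole thymocytes. BALB DP was the high group and did not overlap the others, and its log2 fold change over B6 DP was 0.76 ± 0.114 (SE; adjusted p = 0.00131). Ccnb2, a B-type cyclin, had 87.3 and 86.8 CPM in B6 DP, 85.2 and 84.7 in B6 whole, 160.1 and 126.2 in BALB DP, and 86.7 and 88.4 in BALB whole thymocytes. Only the BALB DP libraries left the narrow range of the others, with a rise of 0.73 ± 0.128 on the log2 scale (adjusted p = 0.00364). Ccnb1, the main mitotic cyclin, was low, with 24.8 and 19.4, 22.5 and 24.2, 31.2 and 26.0, and 21.7 and 19.0 CPM in the same order of groups. Both BALB DP values were above the other 6, but the difference of 0.40 ± 0.19 did not pass (adjusted p = 0.187).

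Cdk1, the kinase that cyclin B switches on (chr10:69335146-69352938), had 68.1 and 65.8 CPM in B6 DP, 61.7 and 68.5 in B6 whole, 119.1 and 93.2 in BALB DP, and 65.9 and 76.1 in BALB whole thymocytes. The BALB DP libraries were again apart from the rest, by 0.68 ± 0.144 over B6 DP (adjusted p = 0.0103). Foxm1, a transcription factor of the G2 programme, had 166.1 and 146.7, 152.0 and 148.3, 204.6 and 232.2, and 150.5 and 170.3 CPM in that order, with replicate 2 the higher in BALB DP. It rose by 0.48 ± 0.116 (adjusted p = 0.0187). Cdc25c, a phosphatase that activates Cdk1, rose by 1.09 ± 0.219 and the kinase gene Melk by 0.98 ± 0.19. Ccnf, whose product is the F-box protein cyclin F, had 0.48 ± 0.148 (adjusted p = 0.0531) and the phosphatase gene Cdc25b 0.30 ± 0.188 (adjusted p = 0.32).

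Of the kinases outside the cyclin group, Plk1, which acts at centrosomes, kinetochores and in cytokinesis, had 49.0 and 47.8 CPM in B6 DP, 53.5 and 51.3 in B6 whole, 72.9 and 70.7 in BALB DP, and 51.2 and 47.4 in BALB whole thymocytes. Replicates lay close and BALB DP was clear of the rest, at 0.57 ± 0.127 over B6 DP (adjusted p = 0.0123). Aurka, the Aurora kinase of the spindle poles, rose by 0.77 ± 0.163 (adjusted p = 0.00982). Plk4, the kinase that starts centriole duplication, had 0 counts in all 8 libraries, as did 5986 of the 23420 symbols, so its level cannot be compared. Kif11, the kinesin that pushes spindle poles apart, had 0 and 0 counts in B6 DP, 3 and 9 in B6 whole, 0 and 1 in BALB DP, and 1 and 0 in BALB whole thymocytes, and was not tested either. As stated above, these 2 sets of counts may not measure the genes' RNA.

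All 4 genes of the chromosomal passenger complex, which corrects wrong attachments and drives cytokinesis, rose. Aurkb, its kinase, had 48.0 and 58.5, 59.5 and 62.4, 79.4 and 89.7, and 55.1 and 65.7 CPM in B6 DP, B6 whole, BALB DP and BALB whole thymocytes, and rose by 0.65 ± 0.147 (adjusted p = 0.0135). Birc5, which encodes survivin, had 99.5 and 88.7, 92.5 and 96.5, 198.3 and 154.1, and 104.8 and 114.8 CPM in the same order. Its BALB DP mean was 1.89 times that of B6 DP in the fit, a log2 fold change of 0.92 ± 0.136 (adjusted p = 0.0012). Cdca8, which encodes borealin, had 73.5 and 70.6, 82.7 and 82.2, 176.1 and 116.5, and 73.4 and 81.9 CPM. For all 3 genes both BALB DP libraries were the highest of the 8, and Cdca8 rose by 1.04 ± 0.17 (adjusted p = 0.00224).

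Incenp, the scaffold of the complex, had 394.3 and 402.9 CPM in B6 DP, 393.2 and 405.9 in B6 whole, 973.2 and 565.6 in BALB DP, and 382.8 and 422.9 in BALB whole thymocytes. Both BALB DP libraries were above all others, but replicate 1 was far above replicate 2. The log2 fold change was 0.95 ± 0.187 (adjusted p = 0.0066) with both, 0.50 (adjusted p = 0.00102) without replicate 1 and 1.31 without replicate 2.

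Within the spindle checkpoint, Bub1b, which encodes BubR1, had 239.5 and 228.7 CPM in B6 DP, 213.2 and 247.4 in B6 whole, 441.8 and 364.1 in BALB DP, and 229.2 and 278.1 in BALB whole thymocytes. The BALB DP group stood clear and exceeded B6 DP by 0.79 ± 0.131 (adjusted p = 0.00247). Ttk, which encodes the checkpoint kinase Mps1, had 32.3 and 24.7, 26.0 and 27.1, 76.4 and 50.5, and 47.3 and 42.7 CPM. BALB was above B6 in both populations here, and the DP difference was 1.19 ± 0.207 (adjusted p = 0.00325). Bub1, a kinase at kinetochores, rose by 0.64 ± 0.178, whereas Mad2l1 (Mad2), with 0.53 ± 0.162, had an adjusted p of 0.0503 and Bub3 0.24 ± 0.143 with one of 0.292.

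At the kinetochore, Cenpf, a large protein of its outer layer, had 682.7 and 690.1 CPM in B6 DP, 595.4 and 646.8 in B6 whole, 1222.3 and 975.2 in BALB DP, and 653.5 and 665.8 in BALB whole thymocytes. Its rise in BALB DP was 0.68 ± 0.11 (adjusted p = 0.00213), with no overlap of BALB DP with any other group. Cenpe, a kinetochore kinesin, had 425.3 and 423.4, 383.2 and 404.4, 750.5 and 552.8, and 413.2 and 383.2 CPM in that order and rose by 0.62 ± 0.129 (adjusted p = 0.00912). Cenpa, Cenpi and Cenpk, of the inner kinetochore, did not pass. Cenpa, the centromeric histone, had 44.9 and 45.2, 45.7 and 46.2, 50.8 and 48.9, and 39.8 and 50.7 CPM, and its difference of 0.15 ± 0.15 had an adjusted p of 0.555. Cenpi had 0.08 ± 0.196 (adjusted p = 0.822) and Cenpk 0.77 ± 0.312 (adjusted p = 0.126), the latter from 22.2 CPM in BALB DP replicate 1 and 11.3 in replicate 2.

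The 4 genes of the Ndc80 complex, which ties kinetochores to microtubules, did not all pass. Nuf2 rose by 1.03 ± 0.183 and Spc24 by 0.66 ± 0.149, while Ndc80 itself, at 92.9 and 87.7 CPM in B6 DP and 109.0 and 90.1 in BALB DP, differed by 0.15 ± 0.154 (adjusted p = 0.557). Spc25 had 97.3 and 82.3 CPM in B6 DP, 87.5 and 101.3 in B6 whole, 298.2 and 131.2 in BALB DP, and 94.7 and 106.6 in BALB whole thymocytes. Its 2 highest values were those of BALB DP, but replicate 1 set much of the size. The rise was 1.28 ± 0.278 (adjusted p = 0.0111) with both libraries and 0.55 without replicate 1 (adjusted p = 0.0196).

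Among the kinesins, Kif15, a spindle motor that can stand in for Kif11, had 184.3 and 177.8 CPM in B6 DP, 204.7 and 205.8 in B6 whole, 341.3 and 277.2 in BALB DP, and 212.5 and 235.9 in BALB whole thymocytes. BALB DP was the highest group and B6 DP the lowest, with a difference of 0.78 ± 0.117 (adjusted p = 0.0013). Kif4, a chromosome-bound kinesin, had 121.2 and 121.8, 118.2 and 129.9, 196.7 and 177.8, and 127.3 and 124.1 CPM and rose by 0.63 ± 0.107 (adjusted p = 0.00294). Kif20a, Kif20b, Kif22 and Kif23, of cytokinesis and chromosome movement, rose by 0.49 to 0.65. Kif2c, which takes microtubules apart at centromeres, had 0.40 ± 0.176 (adjusted p = 0.153).

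All 9 spindle and cytokinesis genes rose, by between 0.38 (Aspm, a spindle pole protein) and 0.97 (Tacc3). Racgap1, part of the centralspindlin complex that marks the division plane, had the smallest p of all members in this comparison. It had 119.3 and 120 CPM in B6 DP, 107.7 and 112.5 in B6 whole, 219.2 and 189.1 in BALB DP, and 116.4 and 128.1 in BALB whole thymocytes. BALB DP exceeded B6 DP 1.71 times in the fit, or by 0.78 ± 0.113 on the log2 scale (adjusted p = 0.00104). Tacc3, which binds spindle microtubules with clathrin, had 103.3 and 116.8, 104.7 and 115.1, 242.3 and 187.1, and 111.3 and 131.1 CPM, a rise of 0.97 ± 0.143 (adjusted p = 0.00116). Tpx2, the activator of Aurora A, had 269.0 and 265.1, 260.7 and 270.2, 496.3 and 379.3, and 258.2 and 284.1 CPM, a rise of 0.72 ± 0.125 (adjusted p = 0.0033). Hmmr, a spindle-bound protein, had 120.5 and 114.5, 108.7 and 114.2, 220.6 and 175.1, and 124.4 and 127.6 CPM, a rise of 0.76 ± 0.123 (adjusted p = 0.00214). In all 4 genes both BALB DP libraries exceeded the other 6. Prc1 and Nusap1, which bundle microtubules, rose by 0.63 and 0.72, and Anln and Ect2, of the contractile ring, by 0.48 and 0.49.

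Mki67, the proliferation marker that coats mitotic chromosomes (chr7:135689784-135716361), had 3517.9 and 3225.6 CPM in B6 DP, 2861.4 and 3104.5 in B6 whole, 5485.1 and 4426.4 in BALB DP, and 3187.4 and 3061.2 in BALB whole thymocytes. It was 1.47 times higher in BALB than in B6 DP thymocytes in the fit, 0.56 ± 0.101 on the log2 scale (adjusted p = 0.00437). Top2a, the topoisomerase that untangles sister chromatids (chr11:98992943-99024189), had 1447.4 and 1392.3, 1331.8 and 1410.6, 2448.5 and 2044.3, and 1546.1 and 1390.0 CPM and rose by 0.66 ± 0.101 (adjusted p = 0.00141). Both genes were high only in BALB DP, in both of its libraries.

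The condensin genes split. Smc2, one of the paired core subunits, rose by 0.69 ± 0.134, Ncapg by 0.96 ± 0.169 and Ncaph by 0.43 ± 0.12. Smc4, the other core subunit, had 1283.9 and 1285.6 CPM in B6 DP, 1186.6 and 1238.4 in B6 whole, 1693.2 and 1386.7 in BALB DP, and 1287.0 and 1257.0 in BALB whole thymocytes, and its difference of 0.26 ± 0.099 did not pass (adjusted p = 0.103). Ncapd2, another subunit of condensin I (chr6:125168007-125191701), went the other way. It had 476.5 and 500.7 CPM in B6 DP, 466.7 and 465.9 in B6 whole, 375.6 and 407.6 in BALB DP, and 278.2 and 301.1 in BALB whole thymocytes. All 4 BALB libraries were below all 4 B6 libraries. In DP thymocytes it fell by 0.32 ± 0.0949 on the log2 scale, to 0.801 of the B6 level (adjusted p = 0.046), a call that DESeq2's Wald test (adjusted p = 0.103), a fit of the 4 DP libraries alone (0.152), a replicate block (0.0554) and 7 of the 8 fits that leave out a library did not make.

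Of the anaphase genes, Cdc20, the activator of the anaphase-promoting complex (chr4:118432901-118437352), had 48.7 and 52.3 CPM in B6 DP, 56.2 and 58.1 in B6 whole, 84.4 and 87.3 in BALB DP, and 56.8 and 50.4 in BALB whole thymocytes. It rose by 0.76 ± 0.127 (adjusted p = 0.00252), with BALB DP replicates that lay close. Pttg1, which encodes securin, the inhibitor of separase (chr11:43420250-43426251), had 7.22 and 11.0, 6 and 9.43, 46.6 and 22.1, and 20 and 26.0 CPM in B6 DP, B6 whole, BALB DP and BALB whole thymocytes. All 4 BALB libraries were above all 4 B6 libraries, and in DP thymocytes the fit put BALB 3.86 times higher, at 1.95 ± 0.349 (adjusted p = 0.00394), or at 1.24 without BALB DP replicate 1. Espl1, which encodes separase, rose by 0.55 ± 0.125 and Ube2c, the ubiquitin-conjugating enzyme of the complex, by 0.60 ± 0.131.

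**Figure D3:**
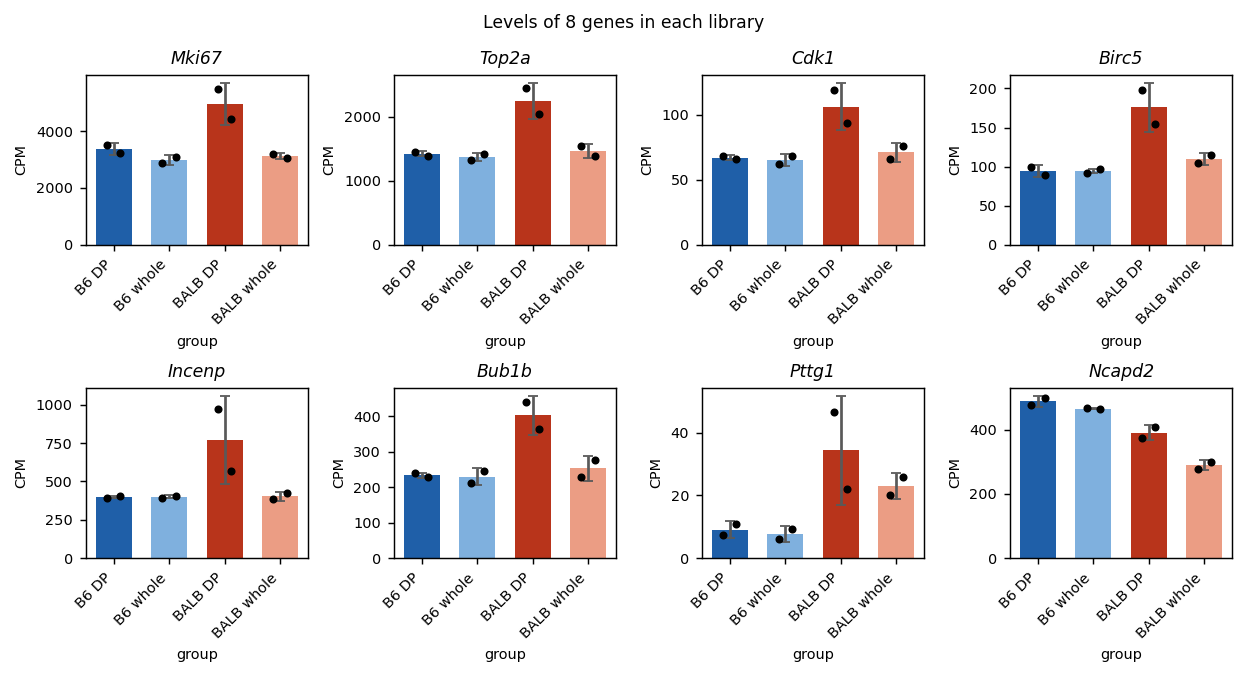
Levels of 8 genes in CPM by group; bars are means, points the 2 libraries and whiskers ± SD. Mki67, Top2a, Cdk1, Birc5, Incenp and Bub1b are highest in BALB DP; Pttg1 and Ncapd2 separate the BALB from the B6 libraries in both populations, upward (20 to 46.6 against 6 to 11.0 CPM) and downward (278.2 to 407.6 against 465.9 to 500.7 CPM).

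The 2 BALB DP libraries differed in size of effect more than in direction. Replicate 1 was above replicate 2 for 43 of the 56 genes, against 49.4% of all tested genes, and the 13 in the other order included Foxm1, Aurkb, Cdc20, Cdc25c and Espl1. Against the B6 DP mean 55 of the 56 genes were higher in replicate 1 and 53 in replicate 2. In the 8 fits that each left out a library, the median log2 fold change of the 56 genes between strains in DP thymocytes was 0.52 to 0.77. The lowest was without BALB DP replicate 1 and the highest without BALB DP replicate 2.

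**Figure D4:**
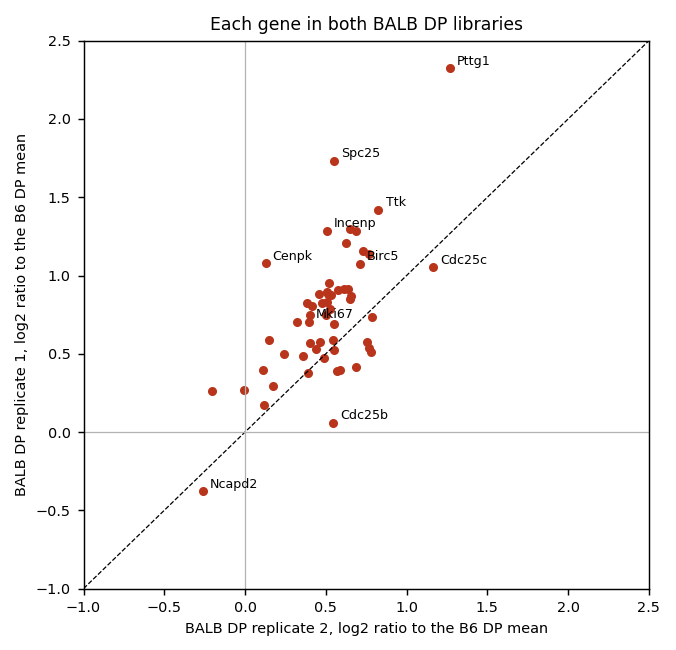
Log2 ratio of each of the 56 tested genes to the B6 DP mean in BALB DP replicate 2 (horizontal) and replicate 1 (vertical); the dashed line marks equal values. Most points are above 0 on both axes and 43 lie above the line; Spc25, Pttg1, Cenpk and Incenp lie far above it, and Ncapd2 is below 0 in both.

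Other lists of cell cycle genes, chosen like the members with earlier results known, give the setting. Of 72 other tested mitosis genes 29 rose and 1 fell in BALB DP thymocytes, with a median of 0.52, among them Kif14, a kinesin of cytokinesis (0.74, adjusted p = 0.000856), and Ncapg2, a condensin II subunit (0.68, adjusted p = 0.00119). S phase genes also rose, 28 of 42 with a median of 0.59, such as the checkpoint adaptor Clspn (0.84) and the replicative helicase genes Mcm3 (0.66) and Mcm2 (0.61). Of the 19 regulators of the DREAM, MuvB and E2F group 7 rose, among them E2f8 (0.62), E2f7 (0.91) and E2f6 (1.24), which encode repressors. Cohesin and its loaders had 3 of 12 higher and 1 lower, and the core of the anaphase-promoting complex, used in every cycling cell and beyond mitosis, had 1 of 15 higher, Anapc5 (0.36, adjusted p = 0.0393).

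Several markers moved with this comparison. Of 15 DP markers 7 fell and none rose in BALB DP thymocytes, and their summed level was 1.55% and 1.58% of gene counts in BALB DP against 2.4% and 2.27% in B6 DP; Rag1 fell by 1.08, Dntt fell by 0.67 and Aqp11 fell by 2.56 on the log2 scale. Markers of the DN and pre-TCR stages, which hold dividing precursors, summed to 0.0571% and 0.0573% in B6 DP and 0.0494% and 0.0602% in BALB DP; of 11 tested 2 rose (Cd44 and Tfrc) and 2 fell (Il2ra and Ptcra), and Hhex was at 0 throughout. Of 13 mature thymocyte markers Gimap4, Bcl2 and Nr4a1 rose and Ccr7 and Itgb7 fell, and the list summed to 0.0142% and 0.014% in B6 DP and 0.0165% and 0.0178% in BALB DP. Erythroid markers, of another dividing lineage, summed to at most 0.00101% in any DP library, with Hba-a1, Hba-a2 and Tspo2 at 0 there. Myeloid and dendritic markers were at 0.00427% and 0.00548% in B6 DP and 0.0051% and 0.00475% in BALB DP, B cell markers at 0.00116% and 0.00125% and at 8.54e-04% and 8.74e-04%, and epithelial and stromal markers at 0.0145% and 0.0161% and at 0.012% and 0.0138%. Of these lists 1 B cell marker (Cd79b) and 1 epithelial marker (Epcam) were called, both lower in BALB DP. Histone genes were taken as the 68 Hist symbols, most but not all of them of S phase histones. They held 2.32% and 1.81% of gene counts in BALB DP and 1.04% to 1.28% in the 6 other libraries. The part of these differences in the result was not tested.

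The same strain comparison in whole thymocytes gave 2 calls among the 56 genes, Pttg1 higher and Ncapd2 lower, where 4.59% of all tested genes were called, 1.98% higher and 2.61% lower. The median log2 fold change was 0.09, against 0.02 over all genes. In edgeR's test 3 of the 56 genes had an unadjusted p under 0.05, as did 1660 of all 11409 tested. Both BALB whole libraries were above both B6 whole libraries for 21 genes (25.6% of all tested genes) and below for 7 (23%). The log2 fold change was above 0 for 45 of the 56 genes and below 0 for 11, against 6045 and 5363 of all genes. Ncapd2 fell by 0.69 ± 0.0954, to 0.621 of the B6 level (adjusted p = 0.00106), and was called in all 8 fits that left out a library. Pttg1 rose by 1.57 ± 0.37, 2.96 times (adjusted p = 0.0323), and lost the call without either B6 whole or either BALB whole library, with adjusted p of 0.0875 to 0.295. Ttk had 0.76 ± 0.21 (adjusted p = 0.0679). Among the rest, none of them called, values ranged from -0.53 ± 0.319 for Cenpk to 0.30 ± 0.185 for Cdc25b. Many were near 0, such as 0.07 ± 0.101 for Mki67, 0.10 ± 0.1 for Top2a, 0.01 ± 0.187 for Incenp and 0.02 ± 0.107 for Kif4. Leaving out BALB whole replicate 1, which differs in sex-linked genes, left 1 call, Ncapd2. None of the 72 other mitosis genes or the 42 S phase genes passed; Esco1, a cohesin acetyltransferase, was the one cohesin gene called, and it fell.

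**Figure D5:**
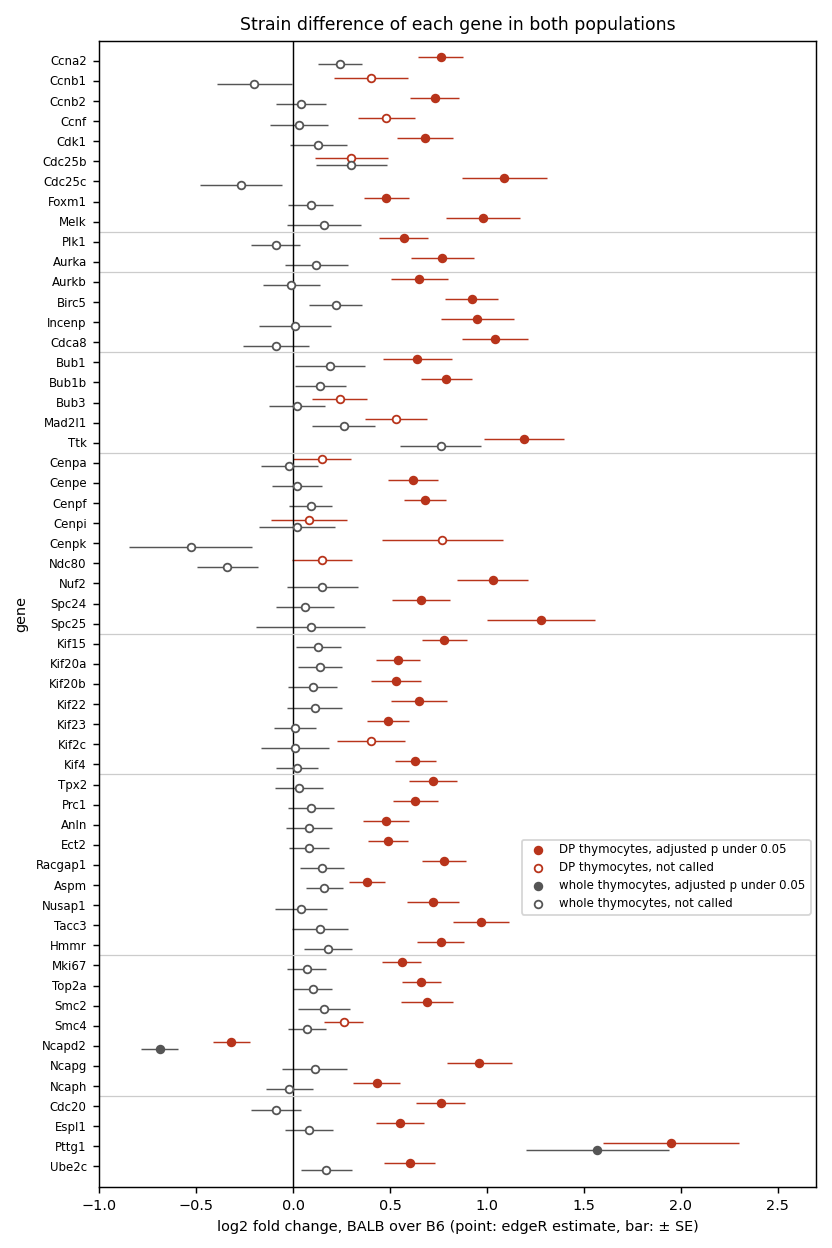
Log2 fold change of BALB over B6 for each of the 56 tested genes in DP (red) and whole thymocytes (grey), from edgeR; bars are ± SE, filled points have an adjusted p under 0.05 and lines part the roles. In DP thymocytes 45 points are filled, with a median over all 56 of 0.65; in whole thymocytes the 2 filled points are Pttg1 at 1.57 and Ncapd2 at -0.69.

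Whole thymocytes were next compared with DP thymocytes within each strain, which asks how the sorted stage differs from the organ's thymocytes as a whole. In B6 none of the 56 genes passed, where 10.2% of all genes did, 6.89% higher and 3.27% lower. The median was -0.01 and DESeq2's Wald test called 0 as well. In edgeR's test 2730 of all 11409 genes had an unadjusted p under 0.05, and among the members 1 did, Cdc25c. It had 9.1 and 12.8 CPM in DP and 18 and 19.6 in whole thymocytes of B6, without overlap, a difference of 0.75 ± 0.223 (adjusted p = 0.0529). Both B6 whole libraries were below both B6 DP libraries for 12 genes (30.5% of all genes) and above for 11 (30.8%). The fit put Mki67 at -0.18 ± 0.101 and Aspm at -0.20 ± 0.0947. Among S phase genes 2 of 42 rose in whole thymocytes of B6, Pole (0.58, adjusted p = 0.0083) and Pola2 (0.52), both of replicative DNA polymerases.

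In BALB 40 of the 56 genes fell in whole against DP thymocytes, none rose and 16 did not pass, where 6.59% of all genes were called lower. This comparison uses the BALB DP libraries that also enter the strain comparison in DP thymocytes, so both rest on the same high values. The median was -0.56, against -0.00 over all genes, and both whole libraries were below both DP libraries for 51 genes (25.1% of all genes); the exceptions were Cdc25b, Cenpa, Cenpi, Cenpk and Pttg1. From the values given above, Cenpf fell by 0.74 ± 0.11 (adjusted p = 0.000897), Racgap1 by 0.74 ± 0.112 (0.000949), Mki67 by 0.67 ± 0.102 (0.00103) and Top2a by 0.61 ± 0.101 (0.00163). Tacc3 fell by 0.83 ± 0.142, Ccnb2 by 0.72 ± 0.128, Tpx2 by 0.70 ± 0.124, Cdca8 by 0.93 ± 0.168, Cenpe by 0.71 ± 0.129 and Kif4 by 0.58 ± 0.107.

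By role, all 9 spindle and cytokinesis genes, all 4 of the passenger complex, both tested Polo and Aurora A kinases and 6 of 7 of chromosome structure fell in BALB whole thymocytes. So did 6 of 9 cyclin and Cdk1 genes, 5 of 9 of centromere and kinetochore, 4 of 7 kinesins, 2 of 5 checkpoint and 2 of 4 anaphase genes. Ndc80, not called between strains in DP thymocytes, fell by 0.55 ± 0.155 here (adjusted p = 0.0317), and Bub3 by 0.48 ± 0.143 (adjusted p = 0.0408). Ncapd2 fell too, by 0.43 ± 0.0955 (adjusted p = 0.00887), and was therefore lowest in BALB whole thymocytes. Pttg1 had -0.65 ± 0.306 (adjusted p = 0.175). The median over the 56 genes was -0.59 without BALB whole replicate 1, -0.55 without BALB whole replicate 2 and -0.47 without BALB DP replicate 1. Markers of other cells were higher in whole thymocytes, where fewer transcripts of the 40 genes were found: DN and pre-TCR markers summed to 0.0805% and 0.0823% of gene counts in BALB whole against 0.0494% and 0.0602% in BALB DP, myeloid and dendritic markers to 0.0295% and 0.0309% against 0.0051% and 0.00475%, and all 13 mature thymocyte markers rose. Il7r is on both the DN and pre-TCR list and the mature thymocyte list, so these lists are not fully separate. The part of these markers in the result was not tested. Among the other lists 29 of 72 mitosis genes, 17 of 42 S phase genes, 7 of 12 cohesin genes and 8 of 19 DREAM and E2F regulators fell in BALB whole thymocytes, and 2 of 15 core subunits of the anaphase-promoting complex.

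Whether the strain difference itself differs between the populations was tested as an interaction, the strain difference in whole minus that in DP thymocytes. By edgeR's quasi-likelihood test no member passed after adjustment, where 0.123% of all genes did and 0.0175% did as lower. DESeq2's Wald test called 1 member. In edgeR's test 44 of the 56 members had an unadjusted p under 0.05, all of them negative. Of all 11409 genes tested 1243 had one, 692 of them negative. The median of the members was -0.55, against 0.01 over all genes. The smallest adjusted p was 0.133, for Cdc20 at -0.85 ± 0.18, then came Cdca8 at -1.13 ± 0.24 (0.138) and Cdc25c at -1.36 ± 0.304 (0.168). Without BALB DP replicate 2, the shallowest library, 39 members and 1311 of all genes were called, and without BALB DP replicate 1 there were 2 members and 47 of all genes, against 0 and 14 with both. Each of these fits leaves BALB DP with 1 library. With no filter on low counts 19 members and 364 of all genes were called. For Mki67 the interaction was -0.49 ± 0.143, for Cdk1 -0.55 ± 0.205 and for Pttg1 -0.38 ± 0.525.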

How the data were processed

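The submitters deposited 1 table of whole-number counts per gene symbol for each library. Per the submitters' processing notes, HISAT2 2.2.0, HTSeq, DESeq2 1.42.1 and the genome build mm10, made from a B6 substrain, were used; the annotation and strand setting were not given in the sources used here. Per the labels, the kit was Illumina's TruSeq RNA v2. HTSeq's lines for reads outside genes were left out of library sizes; 22.6% to 30.8% of reads were in genes.

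Counts were fitted in R 4.3.3 with edgeR 4.0.16 on all 8 libraries, with filterByExpr (11409 genes tested; 6025 with counts were not), TMM scaling (factors between 0.957 and 1.05), 1 coefficient per group, the quasi-likelihood test and Benjamini-Hochberg adjustment over all tested genes. Calls are at an adjusted p under 0.05. The common biological coefficient of variation was 0.114. CPM uses the scaled library sizes, and fold changes are from the fit. Each SE is the absolute log2 fold change divided by the square root of the test's F statistic. Alternatives were DESeq2 1.42.0 size factors and its Wald test, upper-quartile scaling, no filter, a replicate block, only the libraries compared, and leaving out each library; leaving out 2 together was added after seeing the data.

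All 58 members could be named. Values per library are given for called members up to the 10 smallest p of a comparison, 10 genes always eligible (Mki67, Top2a, Ccnb1, Cdk1, Plk1, Aurkb, Birc5, Bub1b, Cdc20 and Foxm1), the 2 highest and 2 lowest per kb and those not tested. Incenp, Spc25, Ttk and Cenpa were given the same after their values were seen. Other genes named come from 12 lists, at most 3 called genes per list and comparison, and histone genes were summed by their Hist symbols. The members and lists were chosen with earlier results of these data known. Gene positions are from GENCODE M21, promoters from RefSeq on GRCm38.p6. Python 3.11.15 with matplotlib 3.10.9 made the figures.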

Additional observations from a re-analysis of the deposited data

How the results depend on the processing

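Each result was recomputed under 14 other settings, except that the fit of only the 4 libraries compared cannot give the interaction, and no value called changed sign among the named members recomputed. The median for whole against DP in B6, -0.01, ranged from -0.09 to 0.04 and so crossed 0. The count of members called between strains in DP thymocytes, 45, was 23 with only the 4 libraries compared and 18 to 50 when a library was left out, and its median of 0.65 was 0.52 to 0.77; leaving out replicate 1 of both BALB groups gave 0.52. In whole thymocytes the 2 calls became 1 to 3 when a library was left out and 5 without those 2 libraries. For whole against DP in B6, with 0 calls, upper-quartile scaling, no filter and a replicate block each gave 1, only the 4 libraries compared gave 4, leaving out a library 0 to 2 and leaving out both replicates 1 gave 4. In BALB the 40 calls were 21 with only the 4 libraries compared and 23 to 48 when a library was left out, with medians of -0.47 to -0.68, and the median was -0.45 without both replicates 1. The interaction, with 0 calls, had 19 without a filter, 1 with DESeq2's Wald test, 0 to 39 when a library was left out, at medians of -0.44 to -0.72, and 10 without both replicates 1 (median -0.42). The cause was not tested.

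Over all genes tested, the counts called moved by over 1.5 times under these settings. Without a filter the 524 strain calls in whole thymocytes became 839 and the 14 interaction calls 364, and DESeq2's Wald test gave 748 in place of 1159 between populations in B6 and 24 for the interaction. With only the 4 libraries compared there were 562, 1050, 2568 and 1101 calls in place of 1482, 524, 1159 and 1961. Leaving out a library gave 509 to 3493, 214 to 966, 378 to 2201 and 1040 to 3976, and 0 to 1311 for the interaction. Leaving out both replicates 1 gave 1046 strain calls in whole thymocytes, 2809 between populations in B6 and 139 for the interaction.

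Mean summed levels in B6 DP, B6 whole, BALB DP and BALB whole thymocytes were 0.31%, 0.287%, 0.513% and 0.32% of all reads. Without Rn45s they were 1.33%, 1.37%, 1.97% and 1.43% of gene counts, and with scaled library sizes 1.3%, 1.23%, 1.93% and 1.28%. With 1 library left out they were 1.22% to 1.28%, 1.22% to 1.29%, 1.7% to 2.04% and 1.32% to 1.35%. BALB DP stayed highest in each.

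Deviations of same-numbered libraries from their group means correlated at -0.0384 to 0.0574 between groups, over the tested genes. With 2 libraries a group this cannot show whether a number marks a shared animal or day, which the labels do not say. With a replicate block 45 members were called between strains in DP thymocytes (45 higher and 0 lower), 3 in whole thymocytes, 1 between populations in B6, 39 in BALB and 0 for the interaction.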
